A study of Mus musculus with 5 samples.

Results

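The 6 genes described here encode the platelet-derived growth factor (PDGF) receptors Pdgfra and Pdgfrb and the PDGF ligands Pdgfa, Pdgfb, Pdgfc and Pdgfd. They were chosen by gene name from the transcript lines of 5 deposited expression files, which hold 55481 genes. In those files 4 of the 6 carry their symbol as a reference gene name, and Pdgfc and Pdgfd carry it as a plain gene name. GL261 cells, a mouse glioma line, were given sodium propionate, the salt of a fatty acid that gut bacteria release, or sodium chloride, the control salt. RNA was taken after 24 h, and the labels give a dose of 1 uM for both salts. All libraries come from the parent line with no allele or transgene named, and the question set by the labels is which transcripts change after propionate. The data comprise 3 chloride libraries (replicates 1, 2 and 3) and 2 propionate libraries numbered 2 and 3; the first propionate replicate is not analysed here. Separate cultures are not stated, so p-values reflect only the spread between these libraries, which may be technical.

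PDGF ligands are secreted dimers that bring receptor chains together, and the paired kinase domains then phosphorylate each other and recruit adaptors, lipid kinases and phospholipases. The alpha receptor binds A, B and C chains, and the beta receptor binds mainly B and D chains. In the brain Pdgfra marks oligodendrocyte precursor cells and Pdgfrb marks pericytes, and PDGF-driven growth is a known feature of many gliomas.

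Levels are given in TPM, transcript abundances corrected for length and scaled to the same total in every library, summed over the transcripts of a gene. Aligned sequence came to between 7.19 and 7.63 Gb per library, and 1 TPM stood for a mean coverage of 4.73 to 4.99 reads per base. Small RNAs took 42.0% to 44.8% of TPM in the chloride libraries, and 46.1% and 40.6% in propionate replicates 2 and 3. Changes are differences of log2(TPM + 1), propionate minus chloride, ± SE, tested with limma over 13878 genes with Benjamini-Hochberg adjustment. A gene was called changed at an adjusted p under 0.05. Over all tested genes the median change was -0.03, 182 genes (1.31%) were called higher and 70 (0.504%) lower.

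Of the 6 genes, 4 had a mean of at least 1 TPM over the 5 libraries and were tested. Of these, 1, Pdgfra, was called higher, against 1.82% of all tested genes in either direction. Pdgfrb and Pdgfb had chloride means of 0.763 and 0.826 TPM and met that minimum only through the propionate libraries. Their p-values are limited by that selection. The alpha receptor rose 1.92-fold. Transcripts of the beta receptor and of its ligand Pdgfb lay higher in both propionate libraries than in all 3 chloride libraries, and neither passed the threshold. Pdgfa, the most abundant ligand, overlapped between the groups. Pdgfc and Pdgfd were listed at 0 in all 5 libraries.

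**Figure D1:**
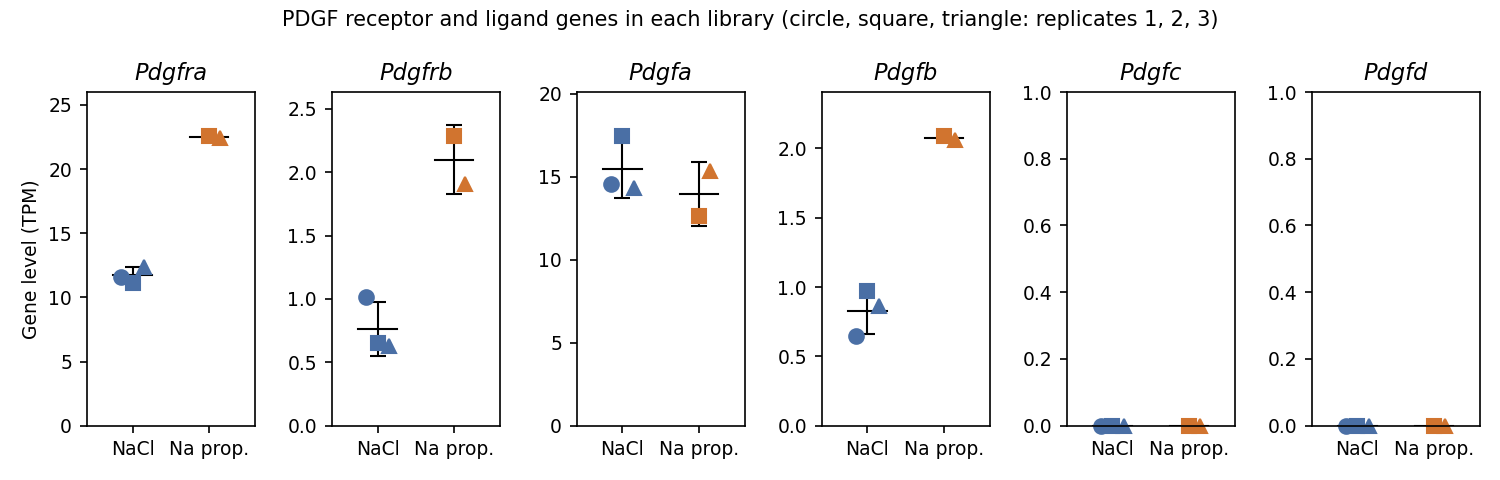
Gene level in TPM (linear axis, a separate scale for each gene) of the 6 PDGF receptor and ligand genes in the 3 sodium chloride (NaCl, blue) and 2 sodium propionate (Na prop., orange) libraries. Horizontal lines are group means and error bars are SD. The propionate libraries lie above all chloride libraries for Pdgfra, Pdgfrb and Pdgfb, the groups overlap for Pdgfa, and Pdgfc and Pdgfd are at 0.

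The sequences before the start of Pdgfra and of Pdgfa are shown because the first gene rose while the second, the more abundant ligand, was not called. Both are RefSeq sequences of GRCm38.p6, the assembly that mm10 names, 5′ to 3′ on the strand of the gene, with CpG dinucleotides in capitals. The Pdgfra stretch (chr5:75152001-75152250, plus strand) is the 250 bases before the RefSeq start, and the Pdgfa stretch (chr5:138995038-138995194, minus strand) is the 157 bases before the start of the main transcript, Pdgfa-202.
Pdgfra upstream: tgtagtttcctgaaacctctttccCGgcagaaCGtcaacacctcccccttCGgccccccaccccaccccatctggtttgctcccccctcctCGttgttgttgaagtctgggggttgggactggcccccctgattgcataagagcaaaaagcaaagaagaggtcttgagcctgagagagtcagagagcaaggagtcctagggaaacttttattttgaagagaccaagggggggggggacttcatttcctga
Pdgfa upstream: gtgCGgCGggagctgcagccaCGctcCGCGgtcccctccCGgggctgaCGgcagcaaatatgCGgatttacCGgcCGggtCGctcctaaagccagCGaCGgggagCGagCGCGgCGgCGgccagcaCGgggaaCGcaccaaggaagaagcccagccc
The Pdgfra stretch holds 4 CpG and the Pdgfa stretch 20. In windows of 300 bases around each RefSeq start, GC content was 51% at Pdgfra and 73.33% at the Pdgfa start nearest Pdgfa-202. The median was 52.67% over 32851 windows. The Pdgfa window (138994895 to 138995194) contains the start of Pdgfa-202. The Pdgfra window (75152001 to 75152300) ends before the transcript Pdgfra-201 begins, at 75152306. The 2 windows thus sit differently on these transcripts, which limits their comparison. The same windows held 5 and 37 CpG, against a median of 7. Both strands were searched for short promoter motifs. The core of the TATA box, spelled TATAAA, was found in 13.62% of all windows. The GC box, spelled GGGCGG, was found in 35.66%. The third motif, CCAAT, was found in 37.41%. The Pdgfra window held none of them, and the Pdgfa window held the GC box at 2 places. A second RefSeq start of Pdgfa had 67% GC, 24 CpG and 1 GC box. The windows of the silent ligand genes Pdgfc and Pdgfd had 55% and 56.67% GC with 8 CpG each, and that of Pdgfd held 1 TATA box core. Pdgfb had no entry in the promoter table. These counts describe letters and name no bound factor.

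Pdgfra (ENSMUSG00000029231, GRCm38 chromosome 5, 75152292 to 75198215, plus strand) encodes the alpha receptor. It had 11.6, 11.1 and 12.4 TPM in chloride replicates 1, 2 and 3, and 22.6 and 22.4 TPM in propionate replicates 2 and 3. The lowest propionate library thus lay far above the highest chloride library, and the libraries within each group lay close together. Group means were 11.7 ± 0.628 (SD, n = 3) and 22.5 ± 0.128 TPM (SD, n = 2). The change was 0.89 ± 0.10 on the log2 scale (95% interval 0.66 to 1.12), with a limma adjusted p = 0.00714. The values rest on 337230 to 376720 aligned bases per chloride library and on 694850 and 686270 in the propionate libraries. Without propionate replicate 3 the change was 0.90, and the call was lost (limma adjusted p = 0.0794). It was also lost with no minimum TPM (0.89, limma adjusted p = 0.119). Summed over reference transcripts alone the change was 1.43, not called (limma adjusted p = 0.127), where the assembled transcripts, which hold a varying share of this gene, are left out.

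Pdgfrb (ENSMUSG00000024620, GRCm38 chromosome 18, 61045150 to 61085061, plus strand) encodes the beta receptor. Chloride replicates 1, 2 and 3 had 1.01, 0.652 and 0.626 TPM, and propionate replicates 2 and 3 had 2.29 and 1.91 TPM. Both propionate libraries exceeded all chloride libraries. Such a higher level without overlap was found in 14.8% of the tested genes, a lower level without overlap in 19.7%, and either in 34.6%. The means were 0.763 ± 0.216 (SD, n = 3) and 2.10 ± 0.270 TPM (SD, n = 2), a 2.75-fold difference of means. On the log2(TPM + 1) scale, which understates the change of low genes, the difference was 0.82 ± 0.20 (95% interval 0.36 to 1.27), with a limma adjusted p = 0.0867. It passed the threshold with TPM rescaled over protein-coding genes (1.07, limma adjusted p = 0.0263) and with voom on aligned bases (1.44, limma adjusted p = 0.00629). Both settings called more genes than the main fit. Rescaling called 629 genes higher and 407 lower of 11949, and voom called 7.69% of tested genes, against 1.82%. With no minimum TPM the difference was 0.82, not called (limma adjusted p = 0.223). The depth of Pdgfrb was low, between 16074 and 24244 aligned bases per chloride library, and 52555 and 47213 in propionate replicates 2 and 3.

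Of the ligand genes, Pdgfa (ENSMUSG00000025856, GRCm38 chromosome 5, 138976014 to 138997370, minus strand) encodes the A chain, which binds the alpha receptor. Its levels were 14.5, 17.5 and 14.3 TPM in the chloride libraries and 12.6 and 15.3 TPM in the propionate libraries. The groups overlapped, since propionate replicate 3 lay between chloride replicates 1 and 2. Means were 15.4 ± 1.76 (SD, n = 3) and 14.0 ± 1.91 TPM (SD, n = 2). The change was -0.14 ± 0.13 (95% interval -0.44 to 0.16), with a limma adjusted p = 0.655.

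Pdgfb (ENSMUSG00000000489, GRCm38 chromosome 15, 79995874 to 80014977, minus strand) encodes the B chain, which binds both receptors. The chloride libraries had 0.646, 0.971 and 0.860 TPM and the propionate libraries had 2.09 and 2.06 TPM, again without overlap. Group means were 0.826 ± 0.165 (SD, n = 3) and 2.08 ± 0.0241 TPM (SD, n = 2), a 2.51-fold difference of means. The log2 difference was 0.76 ± 0.19 (95% interval 0.33 to 1.18), with a limma adjusted p = 0.0900. As for Pdgfrb, the difference passed with TPM rescaled over protein-coding genes (0.98, limma adjusted p = 0.0261) and with voom (1.32, limma adjusted p = 0.0178). With no minimum TPM it was 0.76, not called (limma adjusted p = 0.217). The aligned bases numbered 9637 to 13738 per chloride library and 31517 and 26743 in propionate replicates 2 and 3.

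Pdgfc (GRCm38 chromosome 3, 81036416 to 81214040, plus strand) and Pdgfd (chromosome 9, 6168584 to 6378850, plus strand) encode the ligands that are secreted in a latent form and cut free by proteases. All 3 listed transcripts of each gene were at 0 in all 5 libraries. No fold change can be given for them.

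**Figure D2:**
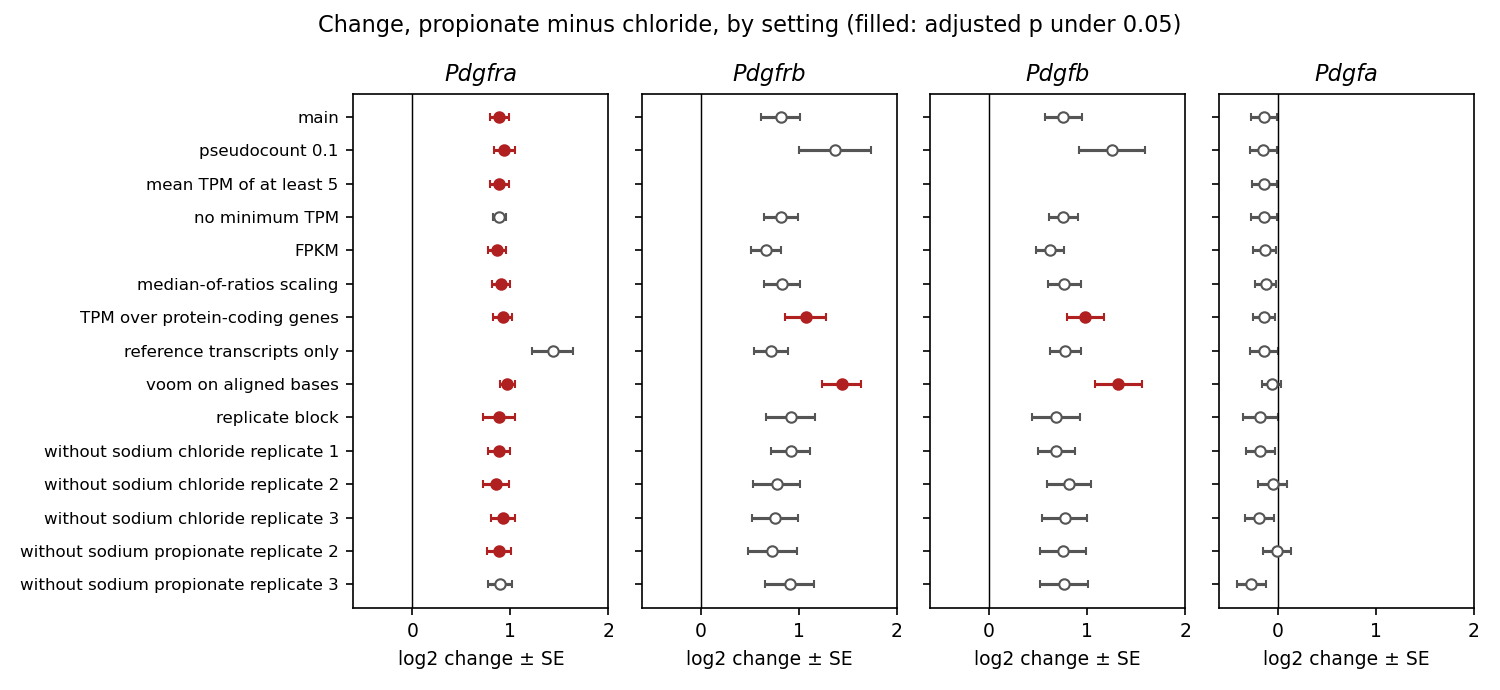
Change on the log2 scale (propionate minus chloride, points with SE bars) of the 4 tested genes under the main setting and each alternative, with filled red points where the adjusted p was under 0.05. Pdgfra stays between 0.86 and 1.43, Pdgfrb and Pdgfb are above 0 in every setting shown and filled in 2, and Pdgfa lies between -0.27 and -0.01. Pdgfrb and Pdgfb have no point at a mean TPM of at least 5 because they fall under that minimum.

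Set side by side per length, Pdgfa was the highest of the 4 expressed genes in every chloride library and Pdgfra the highest in both propionate libraries. Pdgfra and Pdgfa did not overlap within either group, while Pdgfrb and Pdgfb overlapped in both and cannot be ordered. The ratio of Pdgfra to Pdgfa was 0.798, 0.637 and 0.864 in the chloride libraries and 1.79 and 1.46 in the propionate libraries. Its means were 0.766 ± 0.117 and 1.63 ± 0.233, without overlap, with a two-sided exact permutation p = 0.1. That is the smallest p that 10 splits of 3 against 2 libraries allow, and it was 0.15 after adjustment over 6 such quantities. They include the ratio of Pdgfb to Pdgfa, which orders the libraries as the Pdgfb share below does. The 6 are therefore not independent. Pdgfb made up 4.26%, 5.26% and 5.67% of the summed ligand TPM in the chloride libraries and 14.2% and 11.9% in the propionate libraries, also without overlap (exact permutation p = 0.1, adjusted 0.15). The receptors summed to 12.5 ± 0.623 TPM and 24.6 ± 0.398 TPM (exact permutation p = 0.1, adjusted 0.15). The ligands summed to 16.3 ± 1.88 and 16.0 ± 1.89 TPM, with overlapping groups (exact permutation p = 0.8). The ratio of Pdgfra to Pdgfrb ran from 11.5 to 19.8 in the chloride libraries and was 9.88 and 11.8 in the propionate libraries, which overlapped (exact permutation p = 0.3, adjusted 0.36).

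Coverage along the gene was examined after the gene levels were known, as a description with no test. Each exon value is the coverage summed over the gene's transcripts and scaled to TPM. The exons of a gene are not replicates, and exons of all other genes were not counted. Among tested genes, 14.8% were higher without overlap. Of the 23 exons of Pdgfra-201, the full-length receptor transcript, 21 were higher in both propionate libraries than in all chloride libraries. The ratio of means ran from 1.37 to 3.96 with a median of 1.85, and exons 7 and 16 overlapped. The 3267 coding bases of Pdgfra had a coverage of 11.8, 11.6 and 12.8 in the chloride libraries and 21.1 and 22.2 in the propionate libraries, a ratio of 1.79. For Pdgfrb, 11 of 23 exons were higher without overlap, with a median ratio of 2.69. Its 3297 coding bases rested on 0.878, 0.751 and 0.687 in the chloride libraries and 1.79 and 1.63 in the propionate libraries, a ratio of 2.22. None of the 6 exons of Pdgfa-202 separated the groups, and their ratios ran from 0.863 to 0.999.

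In Pdgfb the ratio between the groups was largest at the 3′ end. Only the last of the 7 exons of Pdgfb-201, which has 1384 bases and 0 coding bases, separated the groups. Its coverage was 0.700, 1.07 and 1.04 in the chloride libraries and 3.21 and 2.91 in the propionate libraries, a ratio of 3.27. The 723 coding bases had 0.836, 1.20 and 1.28 in the chloride libraries and 1.84 and 1.38 in the propionate libraries, a ratio of 1.45. These coding values did not overlap, but propionate replicate 3 lay only just above chloride replicate 3. Exons 1 to 6 overlapped between the groups, with ratios of 1.84, 1.03, 1.04, 1.94, 1.28 and 1.66. The 2.51-fold difference of the gene level therefore weighs the untranslated last exon heavily, and whether it reflects the protein-coding message was not tested.

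**Figure D3:**
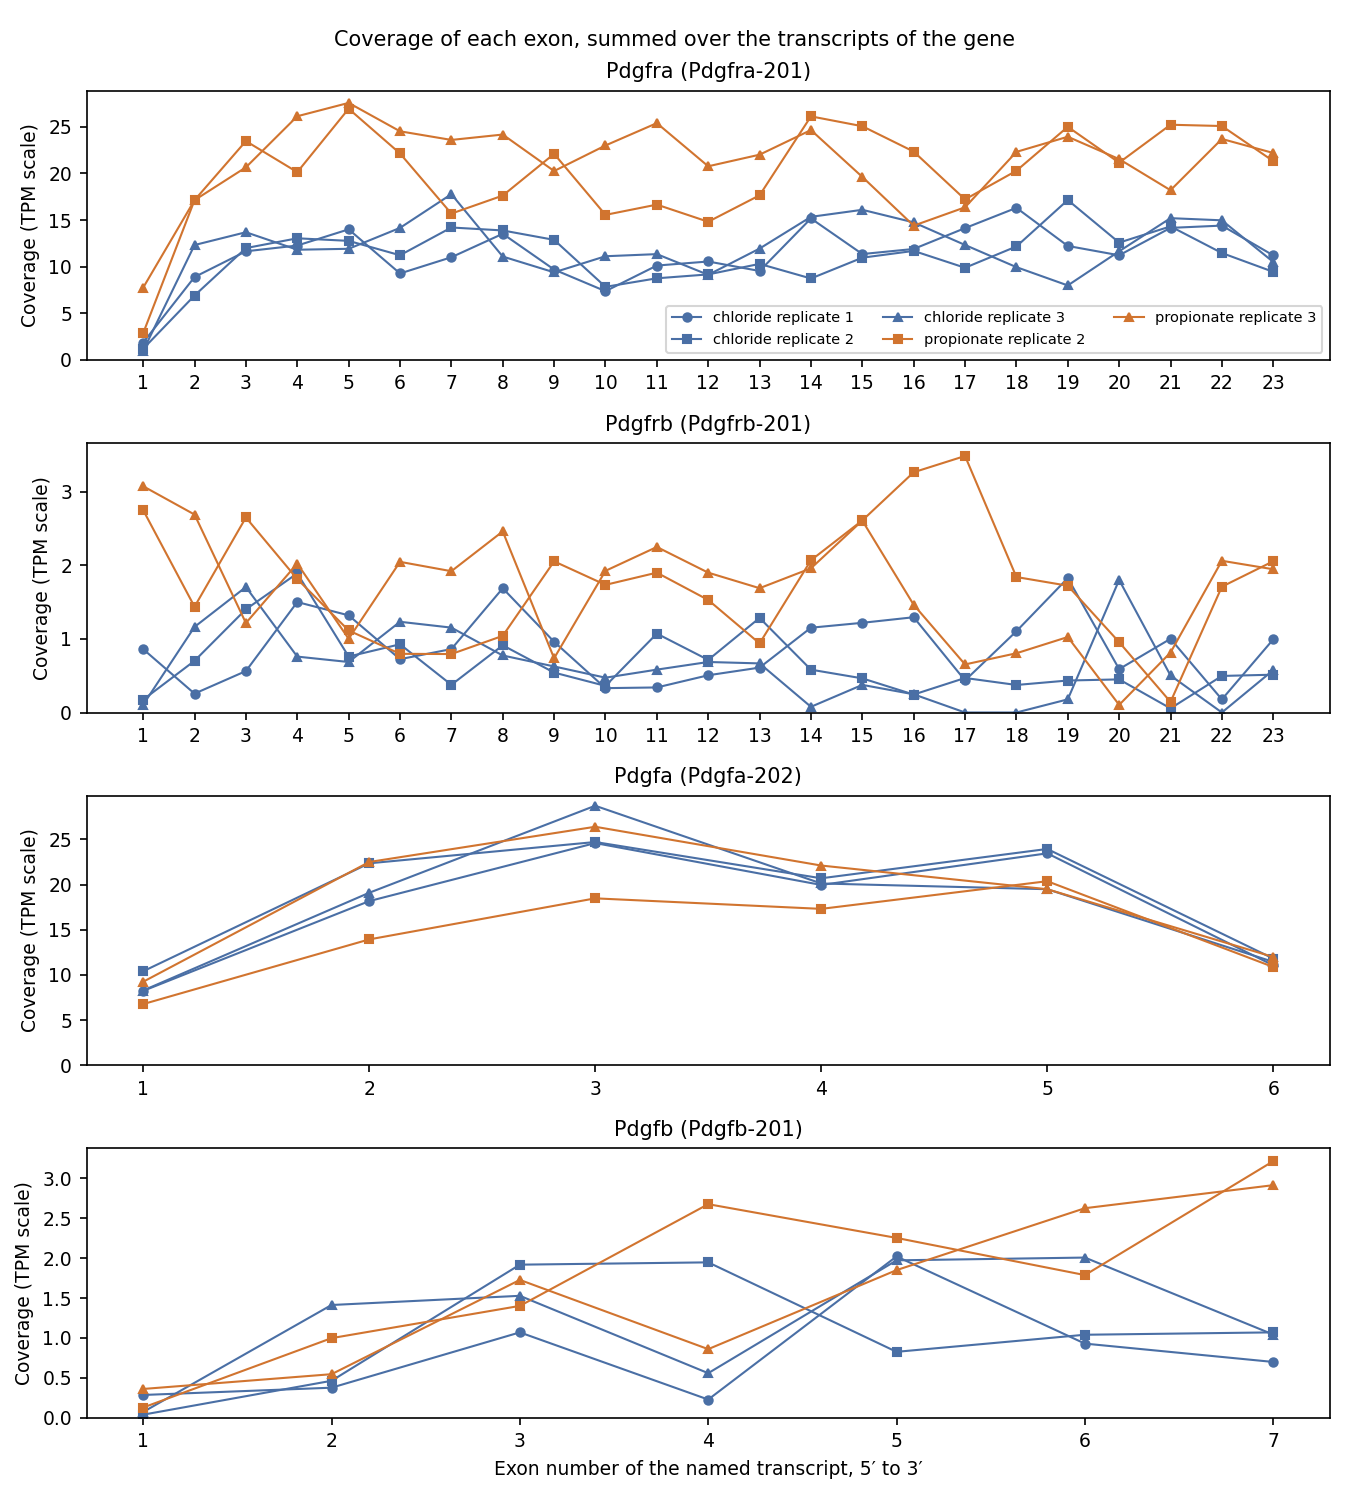
Coverage of each exon on the TPM scale (y axis, linear and separate for each gene) by exon number from 5′ to 3′ (x axis) in Pdgfra-201, Pdgfrb-201, Pdgfa-202 and Pdgfb-201, with 1 line per library (chloride blue, propionate orange). The orange lines lie above the blue lines in 21 of 23 Pdgfra exons, mix with them in all 6 Pdgfa exons, and part from them in Pdgfb only at exon 7.

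The split of each gene among its transcripts was less steady than the gene sum. StringTie divides the reads of shared exons by a model, so transcripts that differ only at the first exon exchange coverage. Pdgfra-201 held 39.2%, 12.3% and 5.91% of Pdgfra TPM in the chloride libraries and 78.2% and 75.5% in the propionate libraries. Pdgfra-202, whose first exon begins further downstream at position 75155899, held 0.145%, 30.7% and 50.2% in the chloride libraries and 0.106% and 0.173% in the propionate libraries. The assembled transcript MSTRG.17484.1, which begins upstream at position 75151367, held 47.0% in chloride replicate 2 and 0% in the other chloride libraries. The gene sum moved only between 11.1 and 12.4 TPM over the same 3 libraries. At the first exon of Pdgfra-201, coverage was 1.85, 1.18 and 0.977 in the chloride libraries and 2.86 and 7.74 in the propionate libraries. At the first exon of Pdgfra-202 it was 0.137, 0.816 and 0.917 against 0.184 and 0.319, with overlapping groups. Of the 33 listed transcripts of the 6 genes, 9 were tested and 0 were called, against 0.0404% of all 32170 tested transcripts. The tested transcripts with the smallest p were Pdgfra-201 (2.69 ± 0.54, limma adjusted p = 0.407) and Pdgfb-201 (0.72 ± 0.25, limma adjusted p = 0.664).

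Pdgfa is made as a short and a long chain, and the alternative exon that ends the long chain encodes basic residues that hold the secreted ligand near the cell surface and matrix. That exon occupies 138978622 to 138978690 on chromosome 5 (69 bases). In Pdgfa-202, which lacks that exon, the chain ends instead with 8 coding bases in exon 6. The coding part of the alternative exon (chr5:138978635-138978690, minus strand, GRCm38, from the GENCODE transcript Pdgfa-201) is shown because only the long chain holds it, with the stop codon in capitals.
Pdgfa alternative exon: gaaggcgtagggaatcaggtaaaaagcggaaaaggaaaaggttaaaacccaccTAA
Coverage of this exon was 1.82, 2.60 and 1.71 in the chloride libraries and 1.26 and 3.23 in the propionate libraries, with overlapping groups. The exon before it, shared by both forms, had between 19.5 and 23.9 in all 5 libraries, so the short form predominated under both salts. StringTie assigned Pdgfa-201, the long form, 2.38%, 28.7% and 6.59% of Pdgfa TPM in the chloride libraries and 1.05% and 3.30% in the propionate libraries. The value of chloride replicate 2 stood apart from the other chloride values, while the coverage of the exon itself there was 2.60.

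**Figure D4:**
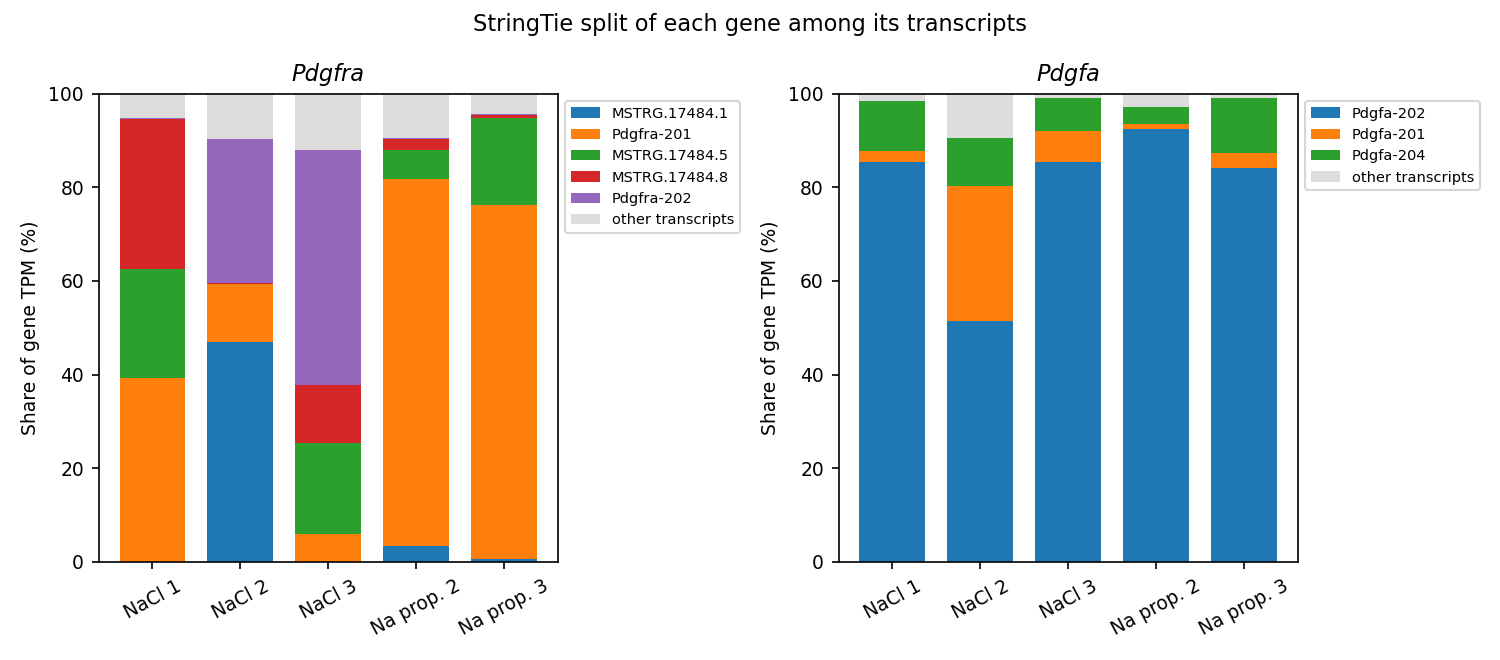
Share of gene TPM (%, y axis) that StringTie gave to each transcript of Pdgfra and of Pdgfa in the 5 libraries (x axis, replicate numbers after the salt), with transcripts never reaching 10% pooled in grey. Pdgfra-201 holds 75.5% and 78.2% of the gene in the propionate libraries and 5.91% to 39.2% in the chloride libraries, and Pdgfa-202 holds 51.5% to 92.4%.

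StringTie was run with no strand option, so reads of antisense genes could bear on the values, which was not tested. The antisense gene 6330403L08Rik, which overlaps Pdgfa, had 0.739 to 1.02 TPM in the chloride libraries and 0.630 and 0.669 TPM in the propionate libraries. Gm42803, opposite Pdgfra, reached at most 0.197 TPM, and Gm41361, opposite Pdgfb, was at 0 in all 5 libraries. No antisense gene overlapped Pdgfrb.

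The other genes of the pathway were described by 5 lists. Of their 75 tested genes 1 was called (1.33%), which is close to the 1.82% of all tested genes. Before adjustment (p under 0.05) 11 were higher and 4 lower, 14.7% and 5.33%, against 7.93% and 8.9% of all tested genes. Voom called 10 (13.3%), against 7.69% of all tested genes. The counts of the single lists below are small and are read against these shares. Of 11 genes for ligand processing and extracellular partners, 7 were tested, 5 lay above 0 and 2 below, the median was 0.22, 1 was called higher and 0 lower. Before adjustment 3 were higher and 1 lower, and voom called 5. Plat, which encodes tissue plasminogen activator, the protease known for activating the C ligand, rose from 30.0, 30.8 and 31.1 TPM in the chloride libraries to 41.9 and 50.2 TPM in the propionate libraries. Both propionate libraries lay above all chloride libraries. The change was 0.57 ± 0.10, with a limma adjusted p = 0.0398. The call was lost without chloride replicate 1 (0.55, limma adjusted p = 0.111), 2 (0.57, limma adjusted p = 0.105) or 3 (0.58, limma adjusted p = 0.0778) and without propionate replicate 3 (0.44, limma adjusted p = 0.144). With no minimum TPM, with reference transcripts only and with the replicate number as a block, its limma adjusted p was 0.171, 0.178 and 0.0798. Nrp1, a co-receptor for several growth factors, had 85.7, 75.2 and 75.3 TPM in the chloride libraries and 54.7 and 58.9 TPM in the propionate libraries, lower without overlap, and did not pass (-0.46 ± 0.10, limma adjusted p = 0.0592).

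Among 40 genes of cytoplasmic signalling, from adaptors to kinases and STAT factors, 39 were tested, 21 lay above 0 and 18 below, and the median was 0.01. By limma 0 were called, and 3 were higher and 1 lower before adjustment (p under 0.05). Voom called 3. The gene with the smallest p was Shc1, an adaptor that binds phosphorylated receptors, which had 5.13, 7.24 and 6.65 TPM in the chloride libraries and 11.0 and 10.7 TPM in the propionate libraries. Its groups did not overlap, and the difference was 0.70 ± 0.14 (limma adjusted p = 0.0559), which passed in 3 alternatives (lowest limma adjusted p = 0.0175, with voom). Stat3, a transcription factor activated by many receptors, had 33.3 to 38.9 TPM in the chloride libraries and 44.3 and 48.9 TPM in the propionate libraries (0.35 ± 0.10, limma adjusted p = 0.143), and also passed in 3 alternatives (lowest limma adjusted p = 0.0181, with voom).

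Of 16 genes that attenuate receptor signalling, 14 were tested, 11 lay above 0 and 3 below, and the median was 0.07. By limma 0 were called, 2 were higher and 0 lower before adjustment (p under 0.05), and voom called 1. Socs3, a feedback inhibitor of cytokine receptor signalling, had 7.46 to 8.13 TPM in the chloride libraries and 10.6 and 15.7 TPM in propionate replicates 2 and 3, which stood well apart from each other (0.67 ± 0.16, limma adjusted p = 0.0790). It passed with median-of-ratios scaling, over protein-coding genes and with voom (lowest limma adjusted p = 0.0201, with voom). With the replicate number as a block it also passed (0.70, limma adjusted p = 0.0361). Chloride replicate 1 has no partner in that block, and leaving it out gave the same 0.70, not called (limma adjusted p = 0.147). Without propionate replicate 2 the change was 0.93. Ptpn12, a tyrosine phosphatase, differed by 0.30 ± 0.12 (limma adjusted p = 0.268).

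Of 11 transcription factors known to act on PDGF receptor or ligand genes, 7 were tested, 3 lay above 0 and 4 below, and the median was -0.07. By limma 0 were called, 1 was higher and 1 lower before adjustment (p under 0.05), and voom called 0. Nkx2-2, a factor of the oligodendrocyte lineage, had 2.21, 1.64 and 1.89 TPM in the chloride libraries and 1.01 and 0.706 TPM in the propionate libraries. The groups did not overlap, with a difference of -0.65 ± 0.19 (limma adjusted p = 0.135), which passed over protein-coding genes (-0.83, limma adjusted p = 0.0446). Nkx2-2 had a propionate mean of 0.858 TPM and met the minimum of 1 TPM only through the chloride libraries. Cebpd differed by 0.37 ± 0.15 (limma adjusted p = 0.256).

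Of 15 listed relatives of the PDGF receptors and ligands, the class III receptor kinases and the VEGF family, 8 were tested, 4 lay above 0 and 4 below, and the median was 0.09. By limma 0 were called, 2 were higher and 1 lower before adjustment (p under 0.05), and voom called 1. Pgf, which encodes placental growth factor, had 1.12, 0.508 and 1.12 TPM in the chloride libraries and 2.13 and 3.56 TPM in the propionate libraries (1.00 ± 0.24, limma adjusted p = 0.0877). The chloride mean of Pgf was 0.917 TPM, so it met the minimum of 1 TPM only through the propionate libraries. It passed over protein-coding genes (1.26, limma adjusted p = 0.0344) and with voom (1.62, limma adjusted p = 0.0315). With the replicate number as a block it also passed (1.08, limma adjusted p = 0.0154). Leaving out chloride replicate 1, which has no partner in that block, gave the same 1.08, not called (limma adjusted p = 0.135). Vegfa, the main vascular growth factor gene, had 24.1, 24.2 and 25.6 TPM in the chloride libraries and 15.7 and 20.2 TPM in the propionate libraries (-0.44 ± 0.12, limma adjusted p = 0.115), a difference that passed over protein-coding genes (-0.45, limma adjusted p = 0.0285).

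**Figure D5:**
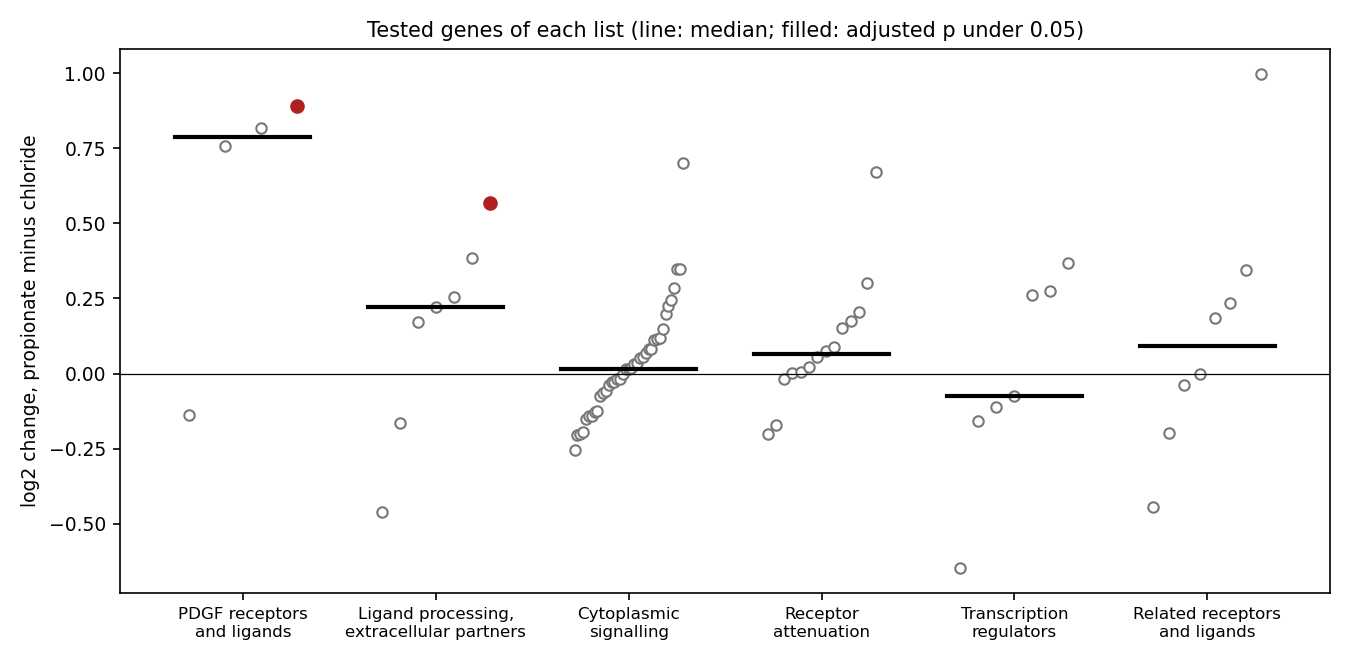
Change on the log2 scale (propionate minus chloride, y axis) of each tested gene in the PDGF receptors and ligands and in the 5 lists of pathway and related genes (x axis), with a line at each median and filled red points for an adjusted p under 0.05. The filled points are Pdgfra at 0.89 and Plat at 0.57, and the medians of the 5 lists lie between -0.07 and 0.22.

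Of the 12 nearest protein-coding genes, 1 on either side of each gene, 5 were tested and 0 were called, and 7 lay under the minimum of 1 TPM. Kit, a class III receptor kinase gene like its neighbour Pdgfra, reached at most 0.200 TPM, and Gsx2, on the other side of Pdgfra, at most 0.0486 TPM. Csf1r, the class III receptor kinase gene next to Pdgfrb, had 0.286 to 0.306 TPM in the chloride libraries and 0.276 and 0.0634 TPM in the propionate libraries, and Cdx1 was at 0. Beside Pdgfa, Gm5294 was at 0 and Prkar1b had 0.388 to 1.08 TPM. Beside Pdgfb, Cbx7 differed by 0.11 ± 0.14 (limma adjusted p = 0.734), and Rpl3 had 1468 to 1486 TPM in the chloride libraries and 1392 and 1561 TPM in the propionate libraries. Beside the silent Pdgfc, Glrb was at 0 and Ctso differed by -0.19 ± 0.16 (limma adjusted p = 0.611). Beside Pdgfd, Casp12 differed by -0.15 ± 0.10 (limma adjusted p = 0.475) and Dync2h1 by -0.09 ± 0.14 (limma adjusted p = 0.810).

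The tested protein-coding genes whose profile over the 5 libraries was most like that of Pdgfra were sought among 10922 candidates, by the root mean square difference of centred log2(TPM + 1) values. The 5 nearest were Cyp1b1 (0.0567), Col12a1 (0.0614), Bfsp2 (0.0629), Arl5c (0.0639) and Dct (0.0659). Cyp1b1 encodes a cytochrome P450 enzyme, Col12a1 a fibril-associated collagen, Bfsp2 an intermediate filament protein of the lens and Dct an enzyme of melanin synthesis. Their levels ran from 1.24 TPM for Arl5c to 59.4 TPM for Dct. Likeness to a profile with 2 levels selects genes that differ between the groups, so it describes these libraries only.

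Because Pdgfra and Pdgfrb mark other cells as well, markers of those cells were read in the same libraries. The counts of called markers below are small and stand beside 1.31% of all tested genes called higher and 0.504% called lower. Cells with more RNA of a gene and a larger share of cells expressing it cannot be told apart in bulk samples. Of the 11 pericyte and smooth muscle markers 4 were tested, all above 0 with a median of 0.40. Before adjustment (limma p under 0.05) 3 were higher, against 7.93% of all tested genes. Only 1 was called, Des, at 2.28 to 2.84 TPM in the chloride libraries and 5.45 and 6.39 TPM in the propionate libraries. Ndufa4l2 (0.53 ± 0.12, limma adjusted p = 0.0745) and Acta2 (0.27 ± 0.10, limma adjusted p = 0.228) were higher without overlap. The list summed to 229 to 255 TPM in the chloride libraries and to 244 and 271 TPM in the propionate libraries. Most of that was Mcam, at 196 to 222 TPM with overlapping groups. Abcc9 and Kcnj8 were at 0 in all libraries, and Rgs5 reached at most 0.0581 TPM. Of the 8 fibroblast markers, 3 were tested and 2 were called higher, Col1a1 and Postn. Col1a1 had 2.53 to 3.39 TPM in the chloride libraries and 6.40 and 9.14 TPM in the propionate libraries. Postn had 6.13 to 6.74 TPM in the chloride libraries and 11.8 and 11.7 TPM in the propionate libraries. The third, Col3a1, had 142, 143 and 130 TPM in the chloride libraries and lower values, 98.8 and 118 TPM, in the propionate libraries (-0.35 ± 0.10, limma adjusted p = 0.141), and it made up most of the list. The list summed to 139 to 153 TPM in the chloride libraries and to 117 and 139 TPM in the propionate libraries, Lum was at 0, and Dcn was at 0 in all libraries but propionate replicate 2 (0.198 TPM). Of the 7 endothelial markers 0 were tested, with sums of at most 0.962 TPM and Cdh5 and Emcn at 0. Of the 6 myeloid markers 1 was tested and 0 were called; they summed to 6.54 to 7.94 TPM in the chloride libraries and to 10.4 and 12.2 TPM in the propionate libraries, nearly all of it Cd68. Itgam and Tyrobp were at 0. Of the 10 oligodendrocyte lineage markers 8 were tested, 3 lay above 0 and 5 below with a median of -0.07, and 0 were called. Before adjustment (limma p under 0.05) 2 were higher and 1 lower, against 7.93% and 8.9% of all tested genes. The list summed to 946 to 1177 TPM in the chloride libraries and to 938 and 1104 TPM in the propionate libraries. Cspg4, a proteoglycan found with Pdgfra on precursor cells, had 16.6 to 18.1 TPM in the chloride libraries and 20.1 and 22.1 TPM in the propionate libraries (0.26 ± 0.10, limma adjusted p = 0.253). Olig1 was higher without overlap (0.55 ± 0.19, limma adjusted p = 0.198). It had 1.27 to 2.19 TPM in the chloride libraries and 2.70 and 3.13 TPM in the propionate libraries. Olig2, under the minimum of 1 TPM, had means of 0.544 and 0.879 TPM in the chloride and propionate libraries. Gpr17, a receptor gene of differentiating precursor cells, went the other way without overlap (-0.55 ± 0.19, limma adjusted p = 0.203). Its means were 1.31 ± 0.173 TPM (SD, n = 3) in the chloride libraries and 0.573 ± 0.0198 TPM (SD, n = 2) in the propionate libraries. Gpr17 met that minimum only through the chloride libraries. Of the 6 glial and glioma markers, all tested, 1 was called, Fabp7, at 12.9 to 14.4 TPM in the chloride libraries and 21.5 and 26.0 TPM in the propionate libraries. S100b, a calcium-binding protein gene of the same list, had 194 to 208 TPM in the chloride libraries and lower values, 147 and 167 TPM, in the propionate libraries (-0.36 ± 0.09, limma adjusted p = 0.0935). The list summed to 5790 to 7398 TPM in the chloride libraries and to 6382 and 7177 TPM in the propionate libraries, nearly all of it Vim. Nes, the intermediate filament gene of neural progenitors and gliomas, stood at 44.2 to 51.5 TPM in all libraries. The part of Des, Ndufa4l2, Acta2, Col1a1, Postn, Col3a1, Cd68, Olig1, Gpr17, S100b and Fabp7 in the receptor values was not tested.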

How the data were processed

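The libraries hold total RNA prepared with a stranded TruSeq kit (Gold), per the labels' protocols. Tools named in the submitters' processing notes are fastp, HISAT2, StringTie and bcl2fastq, with the build mm10. Per the file headers, StringTie 2.1.1 estimated each transcript of a merged annotation with no strand option. The authors deposited TPM, FPKM and coverage values per transcript among other attributes of 157895 transcripts, and no read counts. TPM is scaled over all transcripts, small RNAs included. Where small RNAs take more, all other genes read lower.

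Gene TPM was summed over reference transcripts joined to genes through GENCODE M21, with 12224 of 15415 assembled transcripts counted in the gene of the same locus and strand they overlap, 1540 of them overlapping more than 1 gene. Genes with a mean of at least 1 TPM over the 5 libraries were fitted with limma 3.58.1 in R 4.3.3 (trend, two-sided, group only) on log2(TPM + 1). A gene low in 1 group could meet this minimum through the other group alone. Exact permutation of 3 against 2 libraries cannot give a p under 0.1.

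The members and lists were chosen with earlier results of these data known. Named are all members; of each list up to 4 called genes with the largest change or, where none was called, the 2 with the smallest p; the nearest protein-coding neighbours; and the 5 genes most like Pdgfra, without predicted names. Nrp1, marker genes and exon values were added after values were seen. Alternatives were a pseudocount of 0.1, a minimum of 5 TPM, no minimum, FPKM, TPM over protein-coding genes, scaling by median of ratios, reference transcripts only, voom on aligned bases divided by 100, a replicate block and leaving out each library.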

Additional observations from a re-analysis of the deposited data

How the results depend on the processing

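Pdgfra lay above 0 in all 14 alternatives (0.86 to 1.43, limma adjusted p from 0.000873 to 0.127). Its call was lost with no minimum TPM (0.89, limma adjusted p = 0.119), where 30484 genes were tested, and with reference transcripts only (1.43, limma adjusted p = 0.127). Leaving out 1 library gave 0.86 to 0.93, with the call lost only without propionate replicate 3. Pdgfrb (0.67 to 1.44) and Pdgfb (0.62 to 1.32) lay above 0 in all 13 alternatives that gave a value, and passed with voom (1.44 and 1.32) as well as after rescaling over protein-coding genes (1.07 and 0.98). Neither has a value at a minimum of 5 TPM, nor have Pdgfc and Pdgfd under any alternative. Pdgfa was not called in any of 14 (-0.27 to -0.01). The 0 calls among member transcripts held in all 10 alternatives run.

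Genes called higher were 2 with no minimum TPM, 336 with median-of-ratios scaling, 629 with TPM over protein-coding genes, 5 with reference transcripts only and 708 with voom, against 182. Genes called lower were 1, 154, 407, 6 and 359 in the same order, 106 with FPKM and 107 with the replicate block, against 70. Leaving out 1 library gave 8 to 126 higher and 7 to 46 lower, the fewest without propionate replicate 3. Genes of the 5 pathway lists called were 3 at a minimum of 5 TPM, 0 with no minimum, 2 with FPKM, 5 with median-of-ratios scaling, 9 with TPM over protein-coding genes, 0 with reference transcripts only, 10 with voom and 2 with the replicate block, against 1, and 0 to 2 with 1 library left out. The cause of these shifts was not tested. Among neighbours, Cbx7 ranged from -0.037 to 0.27 with 1 library left out, Rpl3 from -0.082 to 0.082 and Dync2h1 from -0.19 to 0.012, so the sign of each depended on a single library. The sign of Rpl3, at 1.28e-06, also turned with a pseudocount of 0.1 (-1.34e-07) and with FPKM (-0.00019), and that of Dync2h1 with reference transcripts only (0.14).

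The labels share replicate numbers but name no pairing, so the numbers were not taken as pairs. Deviations from the group means correlated across genes at -0.22 (replicate 2) and -0.20 (replicate 3) for same-numbered libraries. With 2 propionate libraries these deviations mirror each other. Chloride replicates 2 and 3 thus gave 0.22 and 0.20 with the propionate library of the other number. These correlations cannot decide whether the libraries were paired. With the replicate block Pdgfra had 0.89 (limma adjusted p = 0.00494), Pdgfrb 0.92 (limma adjusted p = 0.0538), Pdgfb 0.68 (limma adjusted p = 0.179) and Pdgfa -0.18 (limma adjusted p = 0.775). Chloride replicate 1 has no partner in that block, so each of these changes equals the change without that library. The block is therefore no separate check of the size of a change. The low depth of Pdgfrb and Pdgfb limits their exon values most. Each propionate value rests on 2 libraries, and the spread was pooled over both groups.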
